A study of Mus musculus with 4 samples.

Results

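The imprinted Dlk1-Dio3 region of mouse chromosome 12 carries one of the largest groups of miRNA genes in the genome, and its miRNAs were examined here in Sertoli cells, the somatic cells that nurse the developing germ cells of the testis. The miRNAs were chosen by position alone. All mouse miRNAs on the array whose probes were placed within a fixed window of chromosome 12 (mm9) were taken, with both arms of a hairpin and star forms, which gave 73 of 567 mouse miRNAs. They came from 49 hairpins and lay between 110801929 and 110981994, a stretch of 180 kb. The window began 302 kb before the first of them and ended 518 kb after the last. The nearest other miRNA on the array, miR-345-3p, lay 727 kb before them, and the next one on the other side, miR-203*, lay 2567 kb after them.

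Total RNA from purified Sertoli cells was hybridized to 4 Agilent miRNA arrays of 1 slide. The mice were B6129 males aged 5 to 7 weeks, and each RNA was pooled from several animals. Sham mice (1 array) received a Silastic implant and saline. Flut+Acy mice (2 arrays) received the androgen receptor blocker flutamide from an implant and an injection of acyline, an antagonist of gonadotropin-releasing hormone, so that both androgen production and androgen action were suppressed. Flut+Acy+T mice (1 array) received flutamide, acyline and a testosterone implant. The labels call the 3 groups control, flutamide and Testosterone. The question put to the arrays was which miRNAs respond to the removal and the return of androgen. Neither Sham nor Flut+Acy+T had a replicate, and nothing states whether the pair of Flut+Acy arrays came from separate pools of mice, so that p-values below measure only the spread between these 2 arrays. In such bulk RNA, fewer cells of a type and less RNA per cell cannot be told apart.

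The region is imprinted, which means that its genes are read from one parental copy only. The protein-coding genes Dlk1, Rtl1 and Dio3 are read from the paternal chromosome, whereas the long noncoding RNAs Meg3, Rian and Mirg and the miRNAs are read from the maternal chromosome, and the miRNAs are thought to be cut from long maternal transcripts. Their best known sites of expression are the embryo, the placenta and the brain.

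Mature sequences were available from RefSeq (GRCm38.p6) for 70 of the 73 miRNAs. The first set below holds the 7 miRNAs that were measured in Sham or Flut+Acy cells, in their order along the chromosome, written 5′ to 3′ with the seed (bases 2 to 8, the stretch that pairs with target RNAs) in capitals.
miR-770-3p: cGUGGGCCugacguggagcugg
miR-673-5p: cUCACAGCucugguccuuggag
miR-341: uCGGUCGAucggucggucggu
miR-370: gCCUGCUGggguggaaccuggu
miR-882: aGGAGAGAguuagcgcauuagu
miR-494: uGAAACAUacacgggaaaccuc
miR-134: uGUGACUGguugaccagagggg

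The next set holds the opposite arms of the hairpins of miR-770-3p and miR-673-5p, shown because both arms were on the array and this arm was detected on none of the 4 arrays.
miR-770-5p: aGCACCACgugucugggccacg
miR-673-3p: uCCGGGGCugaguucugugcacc

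The last set holds 3 miRNAs for which the Flut+Acy+T array was the only one with a detection flag.
miR-299*: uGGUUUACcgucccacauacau
miR-485*: aGUCAUACacggcucuccucuc
miR-154: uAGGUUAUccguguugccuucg

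No seed was shared among these 10 detected miRNAs. Among all members with a sequence, 1 seed occurred in 2 miRNAs, UGGAUAU in miR-376c* and miR-376b*, neither of which was detected. In the RefSeq table the seed of miR-673-5p recurred in miR-6985-3p and that of miR-882 in miR-3473a, and neither name was on the array.

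The Flut+Acy+T array stood apart from the others. Its 672 negative control spots, which should bind no miRNA, averaged 766 units (SD 1326, median 97.1), against means of 1.91 to 4.32 units on the Sham and Flut+Acy arrays. It had 535 spots marked as nonuniform, against 0, 2 and 4 on the other arrays. The lowest total signal that the scanner software accepted as detected was 238 units on this array and between 0.766 and 2.67 units on the other 3. The results that rest on it are therefore given last, and the comparison of Flut+Acy with Sham is given with and without it. The labelled cell type could be checked only through miRNAs. miR-202-3p, known from the somatic cells of the gonad, had its flag set on Sham (103 units) and on both Flut+Acy arrays (312 and 339 units), and not on the Flut+Acy+T array (8.25 units). The opposite arm, miR-202-5p, was detected on both Flut+Acy arrays (21.49 and 27.05 units). It was not detected on Sham (0.509 units) or on Flut+Acy+T (-22.48 units), so the pair was detected in full only on Flut+Acy.

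Most of the region was silent in these cells. The detection flag of the scanner software was set on no array for 63 of the 73 miRNAs, and on at least 1 array for 10 (13.7%), against 288 of the other 494 mouse miRNAs (58.3%). On the Sham array 6 members were detected (8.22%), where 34% of all 567 mouse miRNAs were. The pair of Flut+Acy arrays detected 6 and 7, where 48.5% and 47.6% of all mouse miRNAs were (6 on both, where 46.4% were). With testosterone 3 were detected, where 18% of all were. The region thus lay below the rest of the array on every array, and by this flag 6 members were detected on Sham and 6 and 7 on the Flut+Acy pair. By another rule, at least 1 spot well above background, the counts were 8 on Sham, 15 and 12 on the Flut+Acy pair, with 5 members on both of these. As shares of the members they were 10.96% on Sham and 20.55% and 16.44% on the Flut+Acy pair. Of the other mouse miRNAs, 42.71%, 56.68% and 53.04% passed this rule. No member was detected on all 4 arrays, whereas 76 mouse miRNAs were. These shares are a description over miRNAs, which are not replicates.

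**Figure D1:**
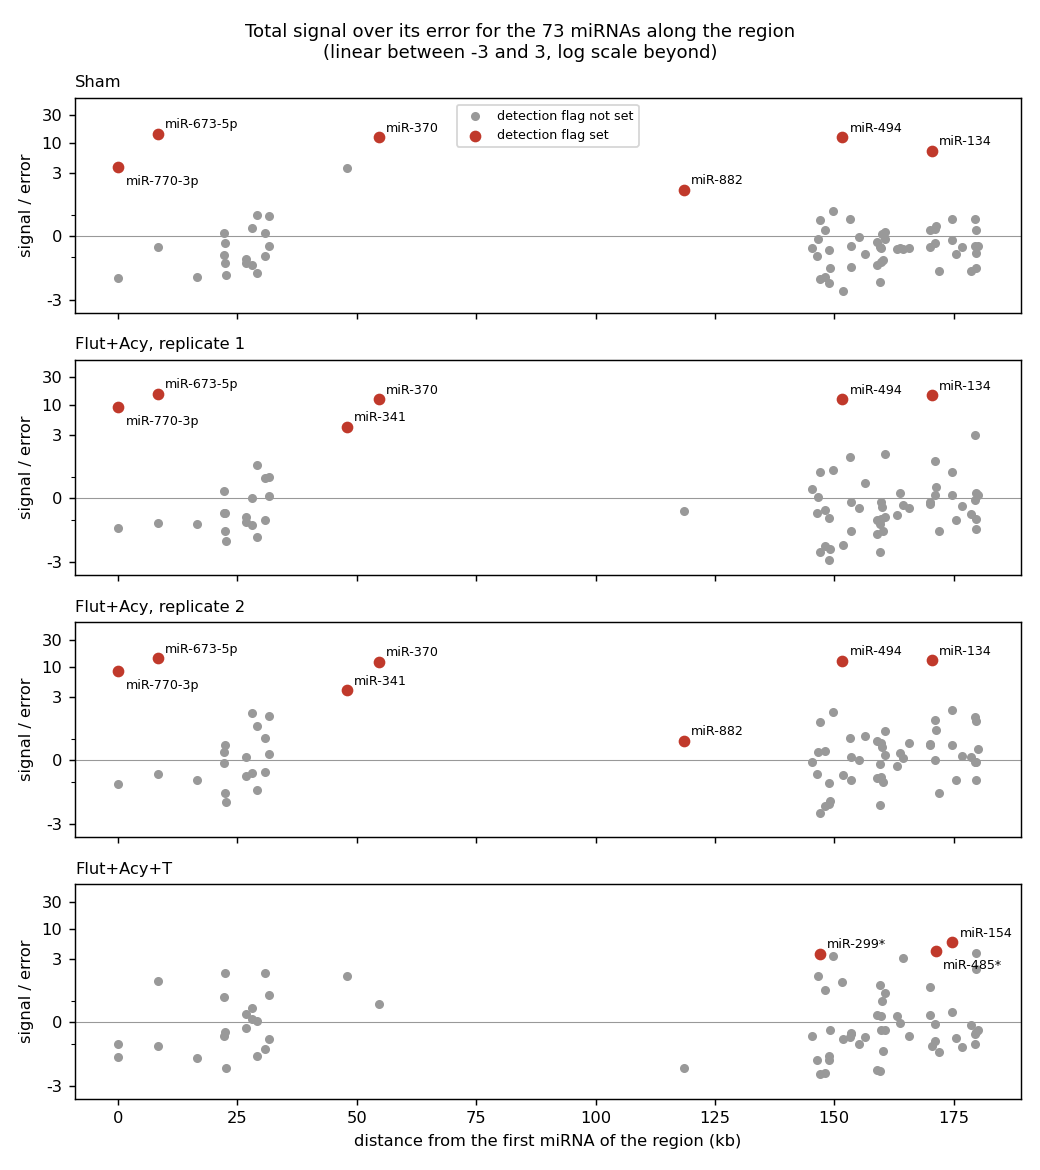
Total signal divided by the scanner software's error of that signal for each of the 73 miRNAs (vertical axis, linear between -3 and 3 and logarithmic beyond), against the distance from the first miRNA of the region in kb, with 1 panel per array. Red points have the detection flag set and are named; 6, 6, 7 and 3 miRNAs are red on the 4 arrays, and none of those on Flut+Acy+T is red on another array.

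**Figure D2:**
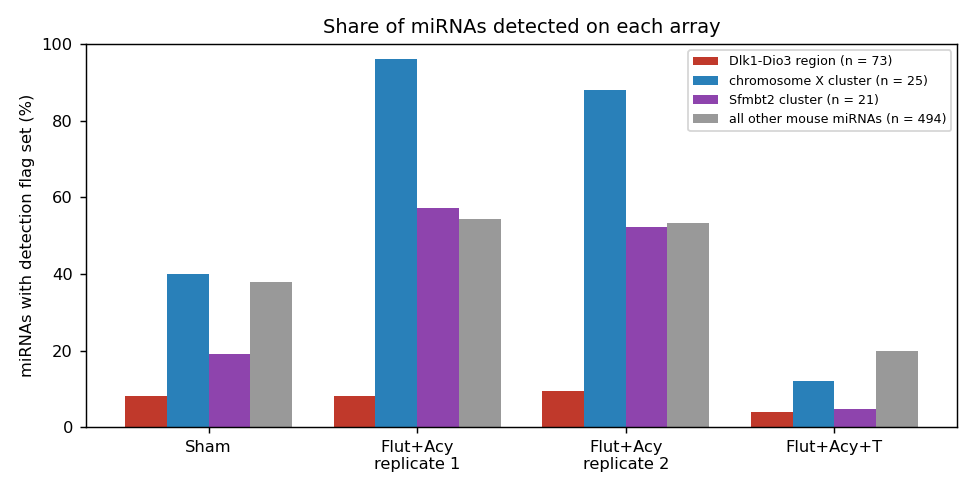
Share of miRNAs with the detection flag set (vertical axis, percent) on each array, for the Dlk1-Dio3 region, for the miRNA clusters of chromosome X and of the Sfmbt2 gene, and for all mouse miRNAs outside the Dlk1-Dio3 region. The Dlk1-Dio3 bars stay between 4.11% and 9.59%, and those of the chromosome X cluster go from 40% on Sham to 96% and 88% on Flut+Acy.

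Other miRNA clusters on the same arrays served as a measure of what a cluster can look like in these cells. Of 25 miRNAs of the chromosome X cluster (64029935 to 64092288), 10 were detected on the Sham array, 24 and 22 on the Flut+Acy pair, and 3 with testosterone. Of 21 miRNAs of the cluster within Sfmbt2 on chromosome 2 (10395571 to 10436549), an imprinted gene read from the paternal copy, 4, 12, 11 and 1 were detected. Chromosome 12 outside the region did not share the silence of its members. Of its 9 miRNAs on the array, 4, 6, 6 and 1 were detected. Among 10 miRNAs from other imprinted genes, 2, 5, 5 and 2 were detected. One of these was miR-296-5p, from the imprinted Gnas region, with a total of 72.0 units on Sham, of 627 and 628 units on the pair of Flut+Acy arrays, and of 351 units with testosterone.

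The silent miRNAs lay in the scatter of the background. On the Sham array their total signals ran from -4.49 to 2.93 units (median -1.34), and 49 of the 63 were negative. On the Flut+Acy arrays the totals ran from -5.38 to 8.07 units (median -1.64) and from -6.73 to 8.92 units (median 0.143). None of the 63 exceeded 3 times its own error on any of these 3 arrays, with median errors of 2.46, 2.63 and 3.87 units. The 206 undetected mouse miRNAs outside the region had medians of -1.76, -1.89 and -1.26 units, and on the Flut+Acy+T array the medians were -45.0 units for the silent members and -88.8 units for the others. The member medians were thus the higher ones on each array, and this difference was not tested. Of their 1259 spots, 1 was well above background on Sham, and 9 and 7 on the Flut+Acy pair. Their small totals followed each other on these 3 arrays and less closely on the fourth. Over the 63 miRNAs Pearson's r was 0.832 between Sham and the first Flut+Acy array, 0.865 between Sham and the second and 0.865 between the pair. With the Flut+Acy+T array it was 0.541 for Sham and 0.357 and 0.605 for the Flut+Acy pair. All 4 arrays share the same probe set and slide.

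Several well known miRNAs of the region were among the silent ones. miR-127, which lies antisense to Rtl1 and directs the cutting of its mRNA, gave 2.44 units on Sham, 4.14 and 6.36 units on Flut+Acy and 6.07 units on Flut+Acy+T. miR-433, which also lies antisense to Rtl1, was negative on Sham and on both Flut+Acy arrays at -3.38, -3.34 and -2.36 units. miR-409-3p gave the highest total of any silent member on the first Flut+Acy array (8.07 units), with 2.03 on Sham and 8.02 on the second Flut+Acy array. miR-329 was highest on the Sham array at 2.93 units and on the second Flut+Acy array at 8.92 units. None of these values carried the detection flag.

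The silent members of the first part of the region were miR-770-5p, miR-673-3p, miR-493, miR-337-5p, miR-337-3p, miR-540-5p, miR-540-3p, miR-665, miR-431, miR-431*, miR-433*, miR-433, miR-127*, miR-127, miR-434-5p, miR-434-3p, miR-136 and miR-136*. Those of the last part were miR-379, miR-411, miR-411*, miR-299, miR-380-5p, miR-380-3p, miR-323-5p, miR-323-3p, miR-758, miR-329, miR-679, miR-666-5p, miR-666-3p, miR-543, miR-495, miR-667, miR-376c*, miR-376c, miR-654-5p, miR-654-3p, miR-376b*, miR-376b, miR-376a*, miR-376a, miR-300*, miR-300, miR-381, miR-487b, miR-539, miR-544, miR-382, miR-382*, miR-668, miR-485, miR-453, miR-154*, miR-496, miR-377, miR-541, miR-409-5p, miR-409-3p, miR-412, miR-369-5p, miR-369-3p and miR-410.

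The measured miRNAs were spread along the region. Gaps of more than 10 kb divided the members into 4 blocks. The first block (110801929 to 110833597) held 20 members, of which miR-770-3p and miR-673-5p were measured on Sham or Flut+Acy. The second held only miR-341 and miR-370, both measured, and the third held only miR-882. The last block (110947280 to 110981994) held 50 members, of which miR-494 and miR-134 were measured on Sham or Flut+Acy, so that the most crowded block had the fewest measured miRNAs for its size. The positions of RefSeq genes were compared without regard to strand. By these positions 2 members lay within Meg3 (1 measured, miR-770-3p) and 18 within Rtl1 (1 measured, miR-673-5p). Another 2 lay within Rian (both measured, miR-341 and miR-370) and 12 within Mirg (none measured on Sham or Flut+Acy). Of 24 hairpins with both arms on the array, 2 had 1 arm measured on Sham or Flut+Acy and none had both. The silent arm miR-770-5p read -3.45, -2.56 and -2.99 units on the Sham and Flut+Acy arrays, and miR-673-3p read -0.877, -2.17 and -1.73 units.

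The measured miRNAs had a higher median GC content than the silent ones. It was 45.5% to 72.7% (median 59.1%) over the 7 miRNAs measured on Sham or Flut+Acy and 23.8% to 72.7% (median 46.4%) over the 60 silent miRNAs with a sequence. Guanine alone made up a median of 42.9% of the bases in the measured and 22.7% in the silent miRNAs. The ranges overlapped, since 26 of the 60 silent miRNAs had a GC content of at least 50%, as did 5 of the 7 measured ones. The repeated cggu of miR-341 and the gggugg run of miR-370, printed above, are examples of such stretches. On these arrays base composition also sets how probes bind, and its part in which miRNAs were detected was not tested.

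Of the 7 miRNAs, miR-770-3p, miR-673-5p, miR-370, miR-494 and miR-134 had the flag set on Sham and on each Flut+Acy array. Their total signals, given below with the error computed by the scanner software, are sums over probes before any normalization between arrays, and are compared only within a miRNA. miR-770-3p (110801963 to 110801975, within Meg3) gave 6.83 ± 1.81 units on Sham, 21.5 ± 2.32 on the first and 28.3 ± 3.27 on the second Flut+Acy array. miR-134 (110972364 to 110972376), which is known for its role in neuronal dendrites, gave 13.7 ± 1.90, 41.3 ± 2.82 and 48.6 ± 3.68 units. Both Flut+Acy arrays lay well above Sham for these miRNAs, with ratios of 3.14 and 4.14 for miR-770-3p and of 3.02 and 3.55 for miR-134.

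miR-494 (110953584 to 110953598) gave 223 ± 17.7 units on Sham and 433 ± 34.4 and 476 ± 37.1 on Flut+Acy, ratios of 1.94 and 2.14. miR-673-5p (110810221 to 110810235, within Rtl1) gave 39.5 ± 2.73, 51.0 ± 3.26 and 56.7 ± 3.97 units, ratios of 1.29 and 1.44. miR-370 (110856522 to 110856536, within Rian) gave 80.8 ± 6.42, 83.7 ± 6.73 and 106 ± 8.60 units, ratios of 1.04 and 1.31. The first Flut+Acy array and Sham thus overlapped within their errors for miR-370, and did not for the other 4. Over the 189 mouse miRNAs whose flag was set on all 3 of these arrays the median ratios to Sham were 2.68 and 3.15, and 69.3% of them were at least 2-fold brighter on Flut+Acy. The Flut+Acy arrays were therefore brighter as a whole, and of the 5 miRNAs only miR-770-3p and miR-134 kept pace on both arrays.

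**Figure D3:**
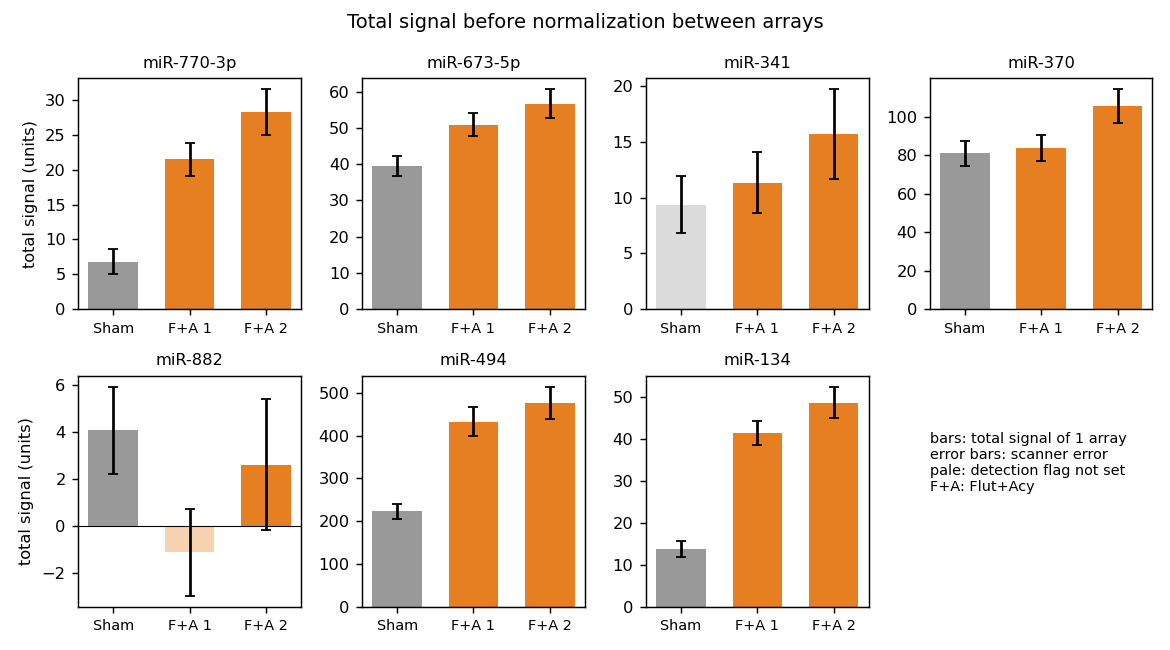
Total signal in scanner units (vertical axis, each panel on its own scale) of the 7 miRNAs measured on Sham or Flut+Acy, 1 bar per array, with the scanner software's error as error bars and pale bars where the detection flag was not set. The bars for miR-770-3p and miR-134 are about as much taller on Flut+Acy as those of the median miRNA, and the bars for miR-370 differ little.

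The separate probes of each miRNA, which cover stretches of different length and share the array but not the spots, gave the same order. For miR-134 all 4 probes had a ratio of Flut+Acy to Sham between 2.46 and 3.83. For miR-770-3p the 3 probes with a ratio lay between 3.15 and 9.06. For miR-494 the 2 probes gave 1.89 and 2.08, for miR-673-5p the 4 probes gave 1.09 to 1.69, and for miR-370 the 2 probes gave 1.14 and 1.18. The ranges of these groups of probes did not overlap between miR-134 or miR-770-3p and the other 3 miRNAs, and a scaling factor common to an array leaves this order as it is.

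**Figure D4:**
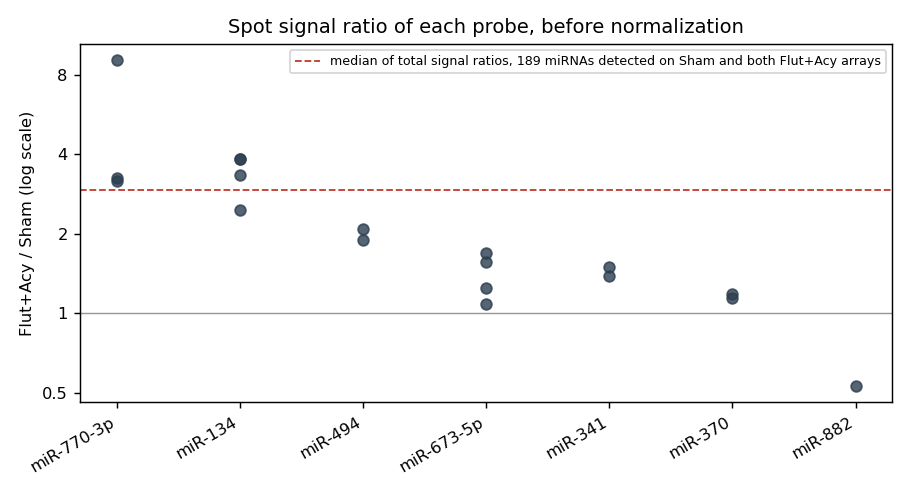
Ratio of mean spot signal on Flut+Acy to that on Sham (vertical axis, log scale, before normalization) for every probe of the 7 miRNAs for which both means were positive, 1 point per probe. The dashed line is the median of the total signal ratios over 189 miRNAs. The probes of miR-494, miR-673-5p, miR-341, miR-370 and miR-882 lie below it, as does the probe of miR-134 at 2.46.

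After quantile normalization over the 4 arrays, differences between Flut+Acy and Sham were tested with limma and the Benjamini-Hochberg adjustment over 298 mouse miRNAs. Among the 7 members detected in either group, 0 were higher in Flut+Acy by 2-fold or more, where 22.6% of the 283 miRNAs compared were, and 4 had normalized values lower by 2-fold or more, where 16.6% were. Of these 4, miR-673-5p and miR-370 were detected on all 3 arrays. The values of the other pair, miR-341 and miR-882, involve signals without the detection flag and are no measured folds, since miR-341 was not detected on Sham and both Flut+Acy values of miR-882 lay at the floor of 5.46 units. limma gave an adjusted p under 0.05 for 7 of the 10 members fitted, all 7 lower in Flut+Acy, where 54% of all 298 passed in either direction and 28.5% were lower. One of these 7, miR-299*, was detected on none of the Sham and Flut+Acy arrays, so its call compares values within background. These calls rest on 1 residual degree of freedom, and the direction against Sham depended on the scaling, as given below.

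On the log2 scale the normalized difference of Flut+Acy minus Sham was -1.49 (SE 0.07, adjusted p = 0.0245) for miR-370 and -1.41 (SE 0.12, adjusted p = 0.0430) for miR-673-5p by limma. It was -0.92 (SE 0.02, adjusted p = 0.0114) for miR-494 and -0.52 (SE 0.05, adjusted p = 0.0437) for miR-134. For miR-770-3p it was -0.25 (SE 0.08, adjusted p = 0.173), which did not pass. The median over the 189 detected miRNAs was -0.37 on this scale. Relative to it, miR-370 lay at -1.12, miR-673-5p at -1.03, miR-494 at -0.55, miR-134 at -0.15 and miR-770-3p at 0.12.

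The sign of these differences turned with the scaling, but the order of the 5 miRNAs mostly did not. Without normalization all 5 were positive, from 0.22 for miR-370 to 1.85 for miR-770-3p, beside a median of 1.54 over the 189 miRNAs. With each array set to the 75th percentile of the miRNAs detected on all 4 arrays, miR-770-3p (0.50) and miR-134 (0.36) were positive and miR-494 (-0.32), miR-673-5p (-0.90) and miR-370 (-1.13) negative, beside a median of 0.19. With quantile normalization over the Sham and Flut+Acy arrays only, leaving out the Flut+Acy+T array, miR-370 was at -1.93 and miR-770-3p at -0.34, beside a median of -0.44. miR-494, miR-673-5p and miR-370 lay below the median of the detected miRNAs under all 9 settings tried, and miR-134 and miR-770-3p lay above the 3 others under 8 of the 9. The exception was the normexp background correction, where miR-370 was at -0.27 and miR-134 at -0.40. The 9 settings were not independent checks. No normalization and both 75th percentile scalings differ only by a constant factor per array, so these miRNAs keep the same place relative to the median. A floor of 1 unit left the main values of the 5 miRNAs unchanged.

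**Figure D5:**
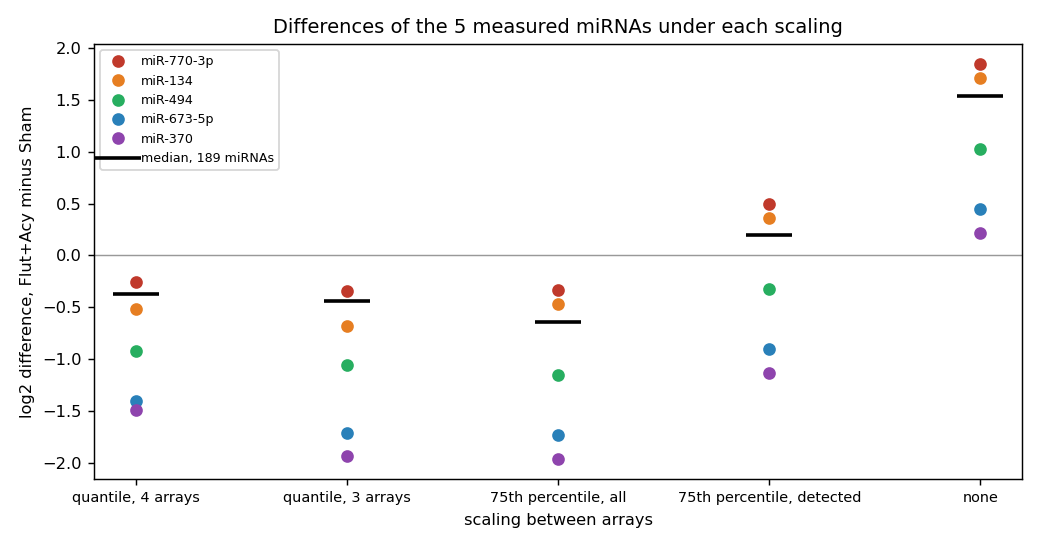
Log2 difference of Flut+Acy minus Sham (vertical axis) for the 5 miRNAs with the flag set on Sham and on each Flut+Acy array, under 5 scalings between arrays (horizontal axis), with the median of the 189 miRNAs detected on the same 3 arrays as black bars. All points and the bar are higher without normalization than under any other scaling shown, with miR-770-3p and miR-134 nearest the bar and miR-370 lowest in each column.

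Totals of markers of other cells differed between the same arrays. The sums below are before normalization, and the median ratios of the Flut+Acy arrays to Sham were 2.68 and 3.15 over the 189 detected miRNAs. The summed total of 5 miRNAs known from male germ cells (miR-34b-5p, miR-34b-3p, miR-34c, miR-449a and miR-449b) was 475 units on Sham and 7121 and 7385 units on Flut+Acy, or 15.0 and 15.5 times as much, with 3, 4 and 4 of the 5 detected and miR-449b at or below 0 on all of them. On the Flut+Acy+T array the sum was 3472 units with 3 detected. The 7 blood miRNAs summed to 241 units on Sham (3 detected) and to 405 and 452 units on Flut+Acy (6 and 5 detected). The 2 endothelial miRNAs summed to 649, 1986 and 2155 units, and the 6 of muscle and peritubular cells to 1785, 2581 and 3094 units. On Flut+Acy+T these lists summed to 911, 4013 and 4571 units with 0, 1 and 3 detected. After quantile normalization the log2 differences of Flut+Acy minus Sham ran from -1.44 to 0 for the blood miRNAs. They ran from -1.33 to 0 for muscle and peritubular cells and from 0 to 3.63 for germ cells. Each 0 came from a miRNA detected on none of the arrays. The endothelial pair was at 0.32 and -0.65. The part of these cells in the differences of the Dlk1-Dio3 miRNAs was not tested.

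A pair of members was measured in only some of these arrays. miR-341 (110849772 to 110849786, within Rian) gave 9.38 ± 2.57 units on Sham without the detection flag, and 11.3 ± 2.76 and 15.7 ± 4.04 units on Flut+Acy with it. The Sham signal was nevertheless 3.65 times its error, close to the 4.11 and 3.88 of the Flut+Acy arrays, so that the flag alone separated the groups. Its normalized levels were 68.0 on Sham and 20.3 and 21.9 on Flut+Acy. The fitted difference on the log2 scale was -1.69 (SE 0.08, adjusted p = 0.0236 by limma) and turned to 0.51 without normalization. Since the group with the higher normalized level was the one without the flag, this difference is not a measured fold.

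miR-882 (110920419 to 110920438, outside the genes named above) was detected on Sham at 4.07 ± 1.86 units. It was detected on the second Flut+Acy array at 2.61 ± 2.78 units, but not on the first, at -1.13 ± 1.87 units. Its totals were 2.19, -0.604 and 0.938 times their errors, the weakest of the measured members. The signal came from 1 of its 4 probes, the one covering 20 bases, with spot means of 19.9 on Sham and 5.88 and 15.3 on Flut+Acy. The other 3 probes were below 0 on all of these arrays. The normalized difference of -2.68 had no spread between the Flut+Acy arrays because both lay at the floor of 5.46 units, so its adjusted p of 0.00436 by limma measures no replicate error.

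On the Flut+Acy+T array none of the 7 miRNAs was detected. miR-494 gave 237 ± 125 units and miR-370 109 ± 124 units there, and miR-673-5p gave 172 ± 88.4 and miR-341 281 ± 128. miR-770-3p, miR-882 and miR-134 were negative at -144 ± 87.2, -185 ± 87.2 and -96.5 ± 87.2 units. The part of these large errors in the missing flags was not tested. After quantile normalization miR-494 was at least 3.92-fold lower than in Flut+Acy (adjusted p = 0.00374 by limma, normalized levels 409, 404 and 102) and miR-370 at least 1.16-fold lower (adjusted p = 0.0150, levels 116, 124 and 41.0). Against Sham the bounds were 7.44-fold for miR-494, 3.27-fold for miR-370 and 1.97-fold for miR-673-5p. These bounds take as their limit the weakest signal that was detected with testosterone and depend on the scaling. Before normalization miR-494 and Sham did not differ beyond their errors (237 ± 125 and 223 ± 17.7). The totals of miR-673-5p and miR-370 were higher on Flut+Acy+T than on Sham. Against Flut+Acy, miR-494 gave 237 ± 125 units beside 433 ± 34.4 and 476 ± 37.1. The total of miR-370 was not lower, at 109 ± 124 units beside 83.7 ± 6.73 and 106 ± 8.60. Its Flut+Acy totals lay under 238 units, the lowest total detected on the Flut+Acy+T array.

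In the comparison of Flut+Acy+T with Flut+Acy over 10 members, 4 had normalized values higher by 2-fold or more, where 17.5% of 297 miRNAs were, and 4 had values lower by as much, where 50.8% were, and limma called 8, where 75.2% of 298 passed. The 4 lower ones, miR-770-3p, miR-370, miR-494 and miR-134, were all undetected with testosterone. By the bounds given above, which are of quantile-normalized values, only miR-494 was lower by over 2-fold. For miR-770-3p and miR-134 the bound was under 1, so that no fold can be given. Without normalization the unflagged total of miR-494 with testosterone (237 ± 125 units) was less than 2-fold below the first Flut+Acy total (433 ± 34.4). It was about 2-fold below the second (476 ± 37.1). Whether miR-494 passed 2-fold thus depended on the scaling. The 4 higher ones were miR-341, which was not detected on the Flut+Acy+T array, and the 3 that were detected only there. These 3 were among 15 miRNAs of the whole array detected on Flut+Acy+T alone. miR-299* (110948856 to 110948875) gave 1.94 units in Sham cells, 3.23 and 7.11 units in the Flut+Acy pair, and 479 ± 130 units with testosterone. miR-485* (110973162 to 110973177) gave 0.833, 0.985, 3.93 and 379 ± 90.9 units, and miR-154 (110976650 to 110976669, within Mirg) gave 2.07, 3.31, 9.26 and 820 ± 140 units. In each case the Sham and Flut+Acy arrays were within background and the Flut+Acy+T array was not by its flag.

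The spots behind these signals resembled many negative controls of that array. The median spot was 347 units for miR-299*, 217 for miR-485* and 532 for miR-154, and 41.5%, 46.9% and 36.0% of the negative control spots lay above these values. Of 20 spots each, 2, 2 and 7 were well above background and 3, 2 and 6 were marked as nonuniform. The normalized level of miR-299* was 271 with testosterone and -2.55 and 2.17 in Flut+Acy (adjusted p = 0.00111 by limma). That of miR-485* was 186 against -11.4 and -8.92 (adjusted p = 0.00111), and that of miR-154 was 552 against -1.76 and 9.07 (adjusted p = 0.0290). No fold is given against Flut+Acy, since these values lie at or near the floor that was set for the log2 scale, and for miR-299* and miR-485* both lay at it, so that their p-values measure no replicate error. Against the lowest detected signal of the Sham array the normalized levels were at least 11.5-fold higher for miR-299*, 7.89-fold for miR-485* and 23.4-fold for miR-154 (adjusted p = 0.00156, 0.00156 and 0.0527 by limma, the last of which did not pass). Another 3 silent members exceeded 3 times their error on the Flut+Acy+T array without its flag, namely miR-329 (428 ± 128 units), miR-539 (274 ± 88.6) and miR-369-5p (498 ± 130). Silent members ran from -219 to 498 units there, with a median of -45.0 and 40 of 63 negative. The part of the raised background in the signals of this array was not tested.

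The region took a small share of the signal of each array. The members held 0.687% of the summed positive signal of all mouse miRNAs in Sham cells, 0.494% and 0.528% in the Flut+Acy pair, and 3.00% with testosterone, where the sum also holds undetected signals of that array's wide background.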

How the data were processed

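The deposited scanner files hold intensity values in 1 colour for each spot and miRNA (Feature Extraction 9.5.3.1, probe positions in mm9). The flags for detection, nonuniform spots and spots well above background were taken as deposited. The table of quantile-normalized intensities that the authors deposited was transformed to log2 here and used only as an alternative. Members were taken by position; the members and the lists of other miRNAs were chosen with earlier results of these data known. Every member is named, and those detected on at least 1 array are given their total signal on each array.

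Total gene signals were quantile-normalized over the 4 arrays, set to a floor of 5.46 units (the smallest value allowed on the scale) and transformed to log2. miRNAs detected on at least 1 array entered limma 3.58.1 in R 4.3.3, tested on simulated data, with Benjamini-Hochberg adjustment. The fits without replicates in Sham and Flut+Acy+T borrow the spread of the Flut+Acy pair. Folds of 2 were counted over miRNAs detected in either group. A group in which a miRNA was not detected has only a bound, the higher of its own signal and the lowest detected signal of the array, and no bound is given where that is the floor. Counts past 2-fold are of normalized values, whether or not both groups were detected. Sequences were matched to RefSeq by exact name (24) or by number and spacing from the probe (46), and no coordinates were converted between builds. Alternatives were other scalings, floors, filters, background corrections and detection rules, each Flut+Acy array left out in turn, and the one-way analysis of variance of the methods. The number of arrays limits the precision.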

Additional observations from a re-analysis of the deposited data

How the results depend on the processing

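Directions against Sham depended on the scaling. The median difference of the 7 members (Flut+Acy minus Sham, log2) was -1.41, and became -0.84 with the 75th percentile of miRNAs detected on all 4 arrays, 0.51 without normalization, -0.40 with normexp, -0.75 with the authors' values, -1.72 without the Flut+Acy+T array, 0.00 without a filter and -0.92 over members detected on every array. The 4 members with normalized values at least 2-fold lower became 2 with that 75th percentile, 0 without normalization, 0 with normexp, 10 without a filter and 2 over members detected on every array, and the 0 higher became 3 without normalization. The 7 calls by limma became 3 with that percentile, 3 without normalization, 4 with the authors' values and 0 by the analysis of variance of the methods (5 members at an unadjusted p under 0.05). For Flut+Acy+T against Flut+Acy, the 4 lower became 2 without normalization and 1 with normexp, the 4 higher became 25 without a filter, and the 8 limma calls became 26 without a filter and 0 by the analysis of variance. The counts of 10, 25 and 26 without a filter include members with the flag set on no array. Apart from the 3 higher and the analysis of variance, no share of all miRNAs is given beside the changed counts of folds and calls. Those counts are therefore no result about the members. The analysis of variance tested 7 of the 10 members. It left out miR-882, miR-299* and miR-485*, whose Flut+Acy values were equal. Of all 243 miRNAs it tested, 130 had an unadjusted p under 0.05 and 0 an adjusted p under 0.05. The 3 members detected on Flut+Acy+T became 8 with at least 1 spot well above background and 6 with a total above 3 errors. These were 4.11%, 10.96% and 8.22% of the members, where 20.04%, 26.11% and 21.26% of the other mouse miRNAs passed.

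Signs turned without normalization for miR-770-3p (1.85), miR-673-5p (0.45), miR-341 (0.51), miR-370 (0.22), miR-299* (1.31), miR-494 (1.03), miR-134 (1.71) and miR-154 (1.42), with that 75th percentile for miR-770-3p (0.50), miR-299* (0.070), miR-134 (0.36) and miR-154 (0.17), and with the authors' values for miR-154 (0.12). The causes were not tested beyond the scaling itself. Leaving out each Flut+Acy array in turn gave medians of -1.44 to -1.32 and the same counts past 2-fold.

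No paired analysis was possible because only Flut+Acy carries replicate numbers. limma over miRNAs detected on all 4 arrays gave no value, since no member was among them, nor did Flut+Acy+T against Flut+Acy over members detected on every array. With 1 Flut+Acy array left out, no residual degrees of freedom remained for a test.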
